A study of Homo sapiens with 12 samples.

Results

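The integrated stress response genes described here are ATF4 and 9 genes known as its targets or as outputs of the same pathway, namely DDIT3, PPP1R15A, TRIB3, SESN2, CHAC1, ASNS, PHGDH, PSAT1 and VLDLR. They were taken by gene symbol, through the GENCODE 29 annotation of the human Ensembl identifiers. No measured value served as a filter, but the genes were chosen with earlier results of these data known. Their shares beside those of all genes are therefore descriptions. All 10 were listed among 58243 human genes and all 10 passed the low-count filter, which left 18628 human genes to test. RNA was sequenced from 12 tumours of MCFDCIS, a human breast cell line used as a model of ductal carcinoma in situ, placed under the skin of athymic nude mice, hosts without T cells. The palbociclib initial tumours were taken after 2 weeks of palbociclib, a drug that blocks CDK4 and CDK6, kinases that drive entry into the cell cycle, given by mouth every day at 50 mg per kg, and the vehicle initial tumours after 2 weeks of vehicle. The palbociclib recovery and vehicle recovery tumours had the same treatments followed by recovery, for a time not stated in the labels. Each of the 4 groups held 3 tumours of the same line, and no genetic change was compared.

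The integrated stress response is the pathway by which cells cut protein synthesis under stress. The kinases PERK, GCN2, PKR and HRI sense unfolded protein, missing amino acids, double-stranded RNA and lack of haem, and each phosphorylates the initiation factor eIF2alpha. General translation then falls while the ATF4 protein is made more, largely through translation of an RNA that is already present, and ATF4 switches on genes for amino acid supply, redox balance and, through DDIT3, cell death. PPP1R15A closes the loop by bringing a phosphatase to eIF2alpha.

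Promoter sequences from RefSeq (GRCh38.p14) were found for 10 of 10 genes, in 15 windows of 300 bases running from 250 bases before the start of transcription to 50 bases after it. The first pair of sequences is shown because ATF4 acts with C/EBP-type partners through elements with the core TGATGNAA, which was searched on both strands. It was found in the windows of ASNS and CHAC1 and in 3.67% of 27305 promoters of the same length. Shares of promoters count only the first window of each gene, whereas all windows of the 10 genes were searched. The ASNS match started at position -68 from the start of transcription (chr7:97872458-97872487, minus strand), and the CHAC1 match lay on the opposite strand at position -209 (chr15:40953251-40953280, plus strand). Capitals mark the 8 matched bases.
ASNS: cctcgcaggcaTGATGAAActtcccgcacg
CHAC1: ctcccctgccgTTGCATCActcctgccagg
The second pair is shown because PPP1R15A and VLDLR are the 2 genes of the group that passed the test below. The cyclic AMP response element TGACGTCA, added after the sequences had been seen, started at position -58 of PPP1R15A (in capitals) and was in 1.98% of the promoters. None of the 3 motifs searched was in the VLDLR window of 300 bases. The ER stress element was searched by its fixed letters, with no mismatch allowed outside its free positions. Such an exact match was in the windows of none of the 10 genes and in 0.0806% of all promoters. The DDIT3 windows held a near match that differed from the searched letters only in the last one, so a variant element there is not excluded. Shown are the parts of both windows upstream of annotated exons, positions -250 to -30 of PPP1R15A (chr19:48872171-48872391, plus strand) and -250 to -1 of VLDLR (chr9:2621537-2621786, plus strand).
PPP1R15A: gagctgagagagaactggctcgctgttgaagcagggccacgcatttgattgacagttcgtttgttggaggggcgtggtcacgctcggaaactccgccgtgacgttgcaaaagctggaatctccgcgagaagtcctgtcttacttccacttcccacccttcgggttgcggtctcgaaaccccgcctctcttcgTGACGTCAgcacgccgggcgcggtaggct
VLDLR: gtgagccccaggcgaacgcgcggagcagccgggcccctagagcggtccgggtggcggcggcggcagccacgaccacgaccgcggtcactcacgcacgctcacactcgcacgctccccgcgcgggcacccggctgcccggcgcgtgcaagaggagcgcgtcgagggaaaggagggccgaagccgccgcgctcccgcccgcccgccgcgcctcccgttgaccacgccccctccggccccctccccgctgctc
A match of letters is a description of the sequence and not a site shown to be bound.

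In GRCh38, GENCODE 29 places ATF4 (ENSG00000128272) at chr22:39519695-39522685 on the plus strand, DDIT3 (ENSG00000175197) at chr12:57516588-57521737 on the minus strand and TRIB3 (ENSG00000101255) at chr20:362835-397559 on the plus strand. It places PPP1R15A (ENSG00000087074) at chr19:48872392-48876057 on the plus strand and VLDLR (ENSG00000147852) at chr9:2621834-2660053 on the plus strand. It places SESN2 (ENSG00000130766) at chr1:28259527-28282491 on the plus strand, CHAC1 (ENSG00000128965) at chr15:40952962-40956519 on the plus strand and ASNS (ENSG00000070669) at chr7:97852118-97872542 on the minus strand. The serine enzymes follow, with PHGDH (ENSG00000092621) at chr1:119648411-119744226 on the plus strand and PSAT1 (ENSG00000135069) at chr9:78297143-78330093 on the plus strand. All 10 are protein-coding genes, and none overlaps another of the 10.

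The values are counts per gene, given below as CPM (counts scaled to the human library size) after trimmed mean of M-values (TMM) scaling. Each library held 8004903 to 15716211 counts of genes, of which 14.2% to 25.4% were of mouse genes and were not used. All 10 epithelial and basal markers of the line were above 1 CPM, with a summed level of 7881 to 12784 CPM, and markers of other cell types were mixed. Of 6 macrophage and leukocyte markers, CD68, CD163 and LYZ had a median of 0 CPM and PTPRC reached at most 0.741 CPM, while CSF1R had 3.89 to 16.6 CPM and CD14 3.93 to 11.03 CPM. Of 5 fat cell markers, ADIPOQ, LEP and FABP4 had a median of 0 CPM, while PLIN1 had 0.389 to 2.21 CPM and LIPE 5.18 to 11.9 CPM. Among markers of fibroblasts and vessels the human rows of COL3A1 and PECAM1 held the most, at 67.4 to 212 and 38.8 to 114 CPM, while COL1A1 reached at most 7.13 CPM and CDH5 at most 0.518 CPM. Some libraries stood apart. Mitochondrial genes held 5.32% and 11.2% of the human counts in vehicle initial tumours 2 and 3, against 0.674% to 2.64% in the other libraries, and vehicle recovery tumour 2 lay at 113.4 on a first principal component that held 42.8% of the variance, against -37.6 to 14.2 in the others. Values without these libraries are given beside each named gene that lost its call without them and beside the larger differences that moved. The labels do not say that the tumours of a group came from different mice. Each p-value therefore sets a difference against the spread between these tumours, estimated over the libraries of the fit, and not against the spread between mice.

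**Figure D1:**
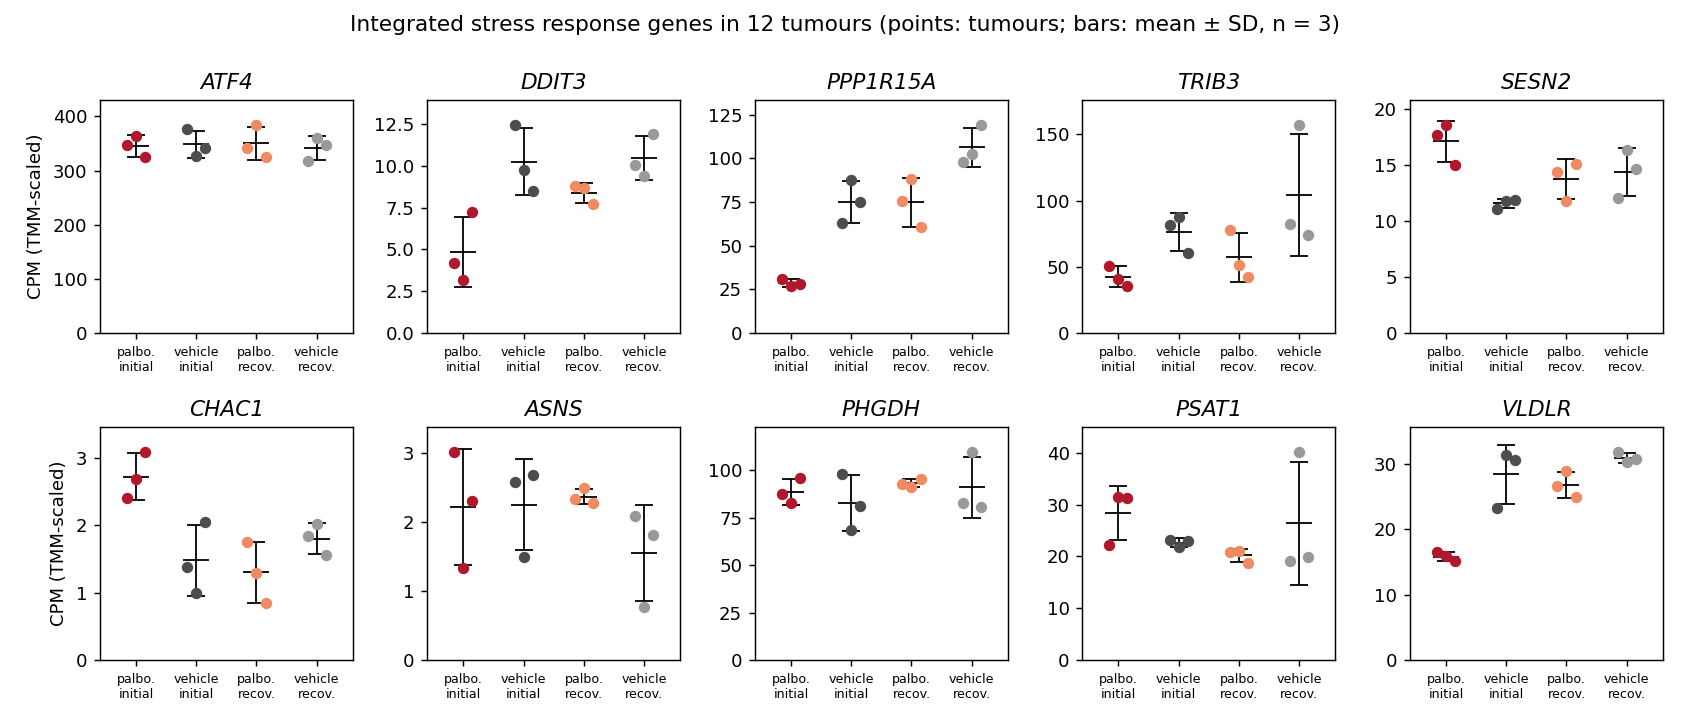
Level of each gene (vertical axes, TMM-scaled CPM, starting at 0) in every tumour, with palbociclib tumours left of vehicle tumours at each stage. Points are tumours and bars are mean ± SD of 3. The palbociclib initial tumours lie below all other tumours for DDIT3, PPP1R15A and VLDLR and above all others for CHAC1.

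The 10 genes differed widely in level, and compared per kilobase of exon ATF4 led by a wide margin. In palbociclib initial tumours ATF4 averaged 137 ± 7.98 CPM per kilobase, and in vehicle initial tumours 138 ± 10.2 CPM per kilobase (SD, n = 3 each). The next genes in palbociclib initial tumours were PSAT1 at 12.9 ± 2.39, TRIB3 at 12.4 ± 2.29, PHGDH at 9.60 ± 0.722 and PPP1R15A at 9.25 ± 0.707 CPM per kilobase, and the range of mean ± SD of each overlapped that of the next. In vehicle initial tumours PPP1R15A at 24.2 ± 3.97 and TRIB3 at 22.2 ± 4.13 CPM per kilobase came next after ATF4, with ranges that overlapped each other and not that of PSAT1 at 10.4 ± 0.362. PPP1R15A also came next after ATF4 in palbociclib recovery tumours at 24.2 ± 4.49 and in vehicle recovery tumours at 34.4 ± 3.62 CPM per kilobase, with TRIB3 again overlapping it at 16.7 ± 5.42 and 30.4 ± 13.4. SESN2, DDIT3 and VLDLR followed in all 4 groups, with means between 1.69 and 8.0 CPM per kilobase. CHAC1 and ASNS were the lowest in all 4 groups, with 0.631 to 1.32 and 0.350 to 0.533 CPM per kilobase.

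The low levels rest on few reads. ASNS had 8 to 34 counts per library, CHAC1 8 to 32 and DDIT3 31 to 144, and the standard errors of ASNS and CHAC1 were the largest of the group, at 0.38 to 0.41 and 0.34 to 0.36 on the log2 scale in the comparisons of 2 groups. ASNS also shares 44.6% of its exon bases with AC079781.5, a transcript of the same strand that had 6 to 36 counts, and how such reads were counted is not stated in the labels, so the ASNS level is uncertain. DDIT3 shares 27.2% of its exon bases with MARS, a gene of the opposite strand with 582 to 1400 counts, and without a stated strand setting reads from the shared bases cannot be told apart. The MARS log2 fold change at the end of treatment was 0.06 ± 0.11 (SE), beside that of DDIT3 given below. VLDLR shares 7.90% of its exon bases with VLDLR-AS1, which had 4 to 16 counts against at least 154 for VLDLR.

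At the end of treatment, palbociclib tumours had less PPP1R15A and VLDLR RNA than vehicle tumours, while ATF4 was close to the same in both. Vehicle tumours are the baseline that the design names for the effect of the drug. Of the 10 genes, 2 fell, 0 rose and 8 did not pass edgeR's quasi-likelihood test at a Benjamini-Hochberg adjusted p under 0.05, whereas 1.84% of all human genes tested passed, 1.7% as lower and 0.14% as higher. The median log2 fold change was -0.01 over the 10 genes and 0.00 over all genes tested, and 6 of the 10 were negative, against 49.9% of all genes. In these bulk tumours, fewer cells of a type and less RNA per cell cannot be told apart.

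ATF4, the transcription factor of the pathway, had 347, 364 and 324 CPM in palbociclib initial tumours, against 377, 327 and 341 CPM in vehicle initial tumours. The groups overlapped fully. The log2 fold change was -0.01 ± 0.11 (SE; edgeR adjusted p = 0.99). ATF4 also spanned the smallest range of the 10 genes over all 12 tumours, 0.27 on the log2 scale, against 0.67 to 2.15 for the other genes.

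PPP1R15A (GADD34), the phosphatase subunit that reverses eIF2alpha phosphorylation, had 31.0, 26.7 and 28.2 CPM in palbociclib initial tumours, against 62.8, 87.4 and 74.8 CPM in vehicle initial tumours. Every palbociclib tumour lay far below every vehicle tumour, with no overlap. It fell by 1.39 ± 0.16 on the log2 scale (edgeR adjusted p = 0.000254). PPP1R15A passed in 16 of 16 alternative settings, and without vehicle initial tumours 2 and 3, which leaves 1 vehicle tumour assumed to vary like the others, the log2 fold change was -1.13 (edgeR adjusted p = 0.0311).

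VLDLR, a receptor for lipoproteins and reelin, had 16.5, 15.9 and 15.1 CPM in palbociclib initial tumours, against 23.2, 31.3 and 30.6 CPM in vehicle initial tumours. The palbociclib tumours lay close together and below all vehicle tumours. It fell by 0.84 ± 0.14 on the log2 scale (edgeR adjusted p = 0.00355). The call was lost without vehicle initial tumours 2 and 3, the pair with the high mitochondrial shares and the higher VLDLR levels, where the log2 fold change was -0.55 (edgeR adjusted p = 0.375), and it held in the other 15 of 16 settings.

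DDIT3 (CHOP), the transcription factor that ATF4 induces in prolonged stress, had 4.17, 3.19 and 7.22 CPM in palbociclib initial tumours, against 12.4, 9.76 and 8.52 CPM in vehicle initial tumours. The groups did not overlap. The log2 fold change was -1.08 ± 0.26, which missed the threshold (edgeR adjusted p = 0.0564). It passed in 7 of 16 alternative settings, among them DESeq2 (adjusted p = 0.00633) and the edgeR fits without vehicle recovery tumour 2 (adjusted p = 0.0121) or without palbociclib initial tumour 3.

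TRIB3, a pseudokinase induced by ATF4 and DDIT3 that binds both ATF4 and AKT, had 51.0, 41.1 and 35.4 CPM in palbociclib initial tumours, against 81.2, 87.5 and 60.4 CPM in vehicle initial tumours. All palbociclib tumours were lower, but the log2 fold change of -0.85 ± 0.30 did not pass (edgeR adjusted p = 0.311). It passed in 2 of 16 settings, without the low-count filter and in the fit to the 6 initial libraries alone. The difference in TRIB3 was of the same size as that in VLDLR, with a larger SE.

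SESN2 and CHAC1 lay on the other side. SESN2, a stress-induced inhibitor of the growth kinase complex mTORC1, had 17.7, 18.5 and 15.01 CPM in palbociclib initial tumours, against 11.1, 11.8 and 11.8 CPM in vehicle initial tumours. Its groups did not overlap, and the log2 fold change was 0.57 ± 0.16 (edgeR adjusted p = 0.13). SESN2 passed in 3 of 16 alternative settings, among them the edgeR fit without vehicle recovery tumour 2 (adjusted p = 0.0379). CHAC1, an enzyme that breaks down glutathione, had 2.40, 2.68 and 3.08 CPM in palbociclib initial tumours, against 1.38, 1.00 and 2.05 CPM in vehicle initial tumours. Again every palbociclib tumour was higher, with a log2 fold change of 0.90 ± 0.35 (edgeR adjusted p = 0.352), and CHAC1 passed in 0 of 16 settings.

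The amino acid enzymes of the group did not separate. PHGDH, the first enzyme of serine synthesis, had a log2 fold change of 0.10 ± 0.14 and PSAT1, the next enzyme, of 0.32 ± 0.24 (edgeR adjusted p = 0.919 and 0.778). ASNS, which makes asparagine, had a log2 fold change of -0.02 ± 0.39 (edgeR adjusted p = 0.995). The tumours of the groups overlapped for all 3 enzymes. PSAT1 was 31.5 and 31.2 CPM in palbociclib initial tumours 2 and 3 and 22.3 CPM in tumour 1, against 21.8 to 23.2 CPM in vehicle initial tumours.

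In all, 4 of the 10 genes (DDIT3, PPP1R15A, TRIB3 and VLDLR) were lower in every palbociclib initial tumour than in every vehicle initial tumour, where 11.3% of all genes tested were. Another 2 (SESN2 and CHAC1) were higher in every one, where 9.39% were. An unadjusted p under 0.05 was found for 6 of the 10, against 9.87% of all genes. Since the 10 genes were chosen with results known, nothing is read from these shares.

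**Figure D2:**
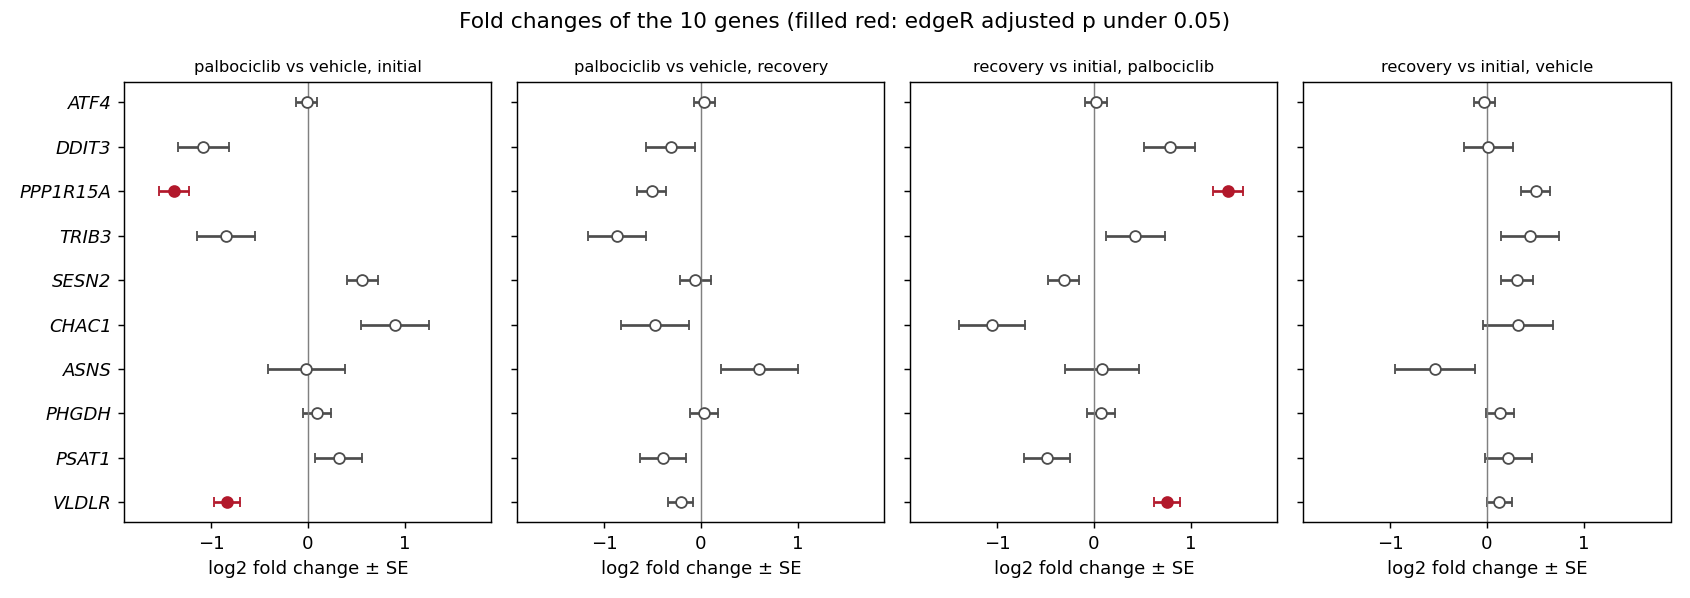
Log2 fold change with its standard error (horizontal axes) of each gene in 4 comparisons, each with the palbociclib or recovery tumours over the vehicle or initial tumours. Filled red points passed edgeR's test, PPP1R15A and VLDLR at -1.39 and -0.84 at the end of treatment and at 1.38 and 0.76 in recovery against initial palbociclib tumours.

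After recovery, none of the 10 genes passed between palbociclib and vehicle tumours. The edgeR test called 0 of 10 genes, with 2 at an unadjusted p under 0.05 (8.66% of all genes), against 1 of all 18628 genes tested, or 0.00537%, a gene that was lower. DESeq2 and limma voom also called 0 of the 10, with 18 and 2 of all human genes. Without the low-count filter edgeR called 1 of the 10, TRIB3, and 794 of all human genes. The median log2 fold change was -0.26 over the 10 genes and 0.00 over all genes, with 7 of the 10 negative, against 50.3% of all genes. This count rests in part on vehicle recovery tumour 2. Without it SESN2 and PSAT1 were positive, at 0.05 and 0.05, while DDIT3, PPP1R15A, TRIB3, CHAC1 and VLDLR stayed negative.

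PPP1R15A had 75.4, 88.3 and 60.6 CPM in palbociclib recovery tumours, against 97.8, 102.3 and 119.1 CPM in vehicle recovery tumours. All palbociclib tumours were still lower, with a log2 fold change of -0.51 ± 0.15 (edgeR adjusted p = 0.573, unadjusted p = 0.00453). VLDLR had 26.6, 28.9 and 24.9 CPM in palbociclib recovery tumours, against 31.8, 30.3 and 30.7 CPM in vehicle recovery tumours. These groups also did not overlap, but the log2 fold change was -0.21 ± 0.13 (edgeR adjusted p = 0.605).

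DDIT3 had 8.77, 8.70 and 7.70 CPM in palbociclib recovery tumours, against 10.03, 9.40 and 11.9 CPM in vehicle recovery tumours, with a log2 fold change of -0.31 ± 0.25 (edgeR adjusted p = 0.67). The groups lay next to each other without overlap. TRIB3 had 78.0, 51.6 and 42.1 CPM in palbociclib recovery tumours, against 82.3, 157.1 and 73.7 CPM in vehicle recovery tumours. Its log2 fold change of -0.87 ± 0.30 (edgeR adjusted p = 0.573) was -0.45 without vehicle recovery tumour 2, the library that stood apart and the highest of all for TRIB3.

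The remaining genes were nearer to 0 or varied more. ATF4 was at 342, 384 and 325 CPM in palbociclib recovery tumours, against 318, 361 and 348 CPM in vehicle recovery tumours, with full overlap. ASNS had 2.34, 2.50 and 2.28 CPM in palbociclib recovery tumours, against 2.09, 0.767 and 1.82 CPM in vehicle recovery tumours, so that every palbociclib tumour was higher (log2 fold change 0.61 ± 0.40, edgeR adjusted p = 0.615). Without vehicle recovery tumour 2, the lowest library for ASNS, the log2 fold change was 0.27. The other log2 fold changes were -0.47 ± 0.35 for CHAC1, -0.39 ± 0.24 for PSAT1, -0.06 ± 0.16 for SESN2 and 0.03 ± 0.14 for PHGDH, with adjusted p from 0.602 to 0.947. PSAT1 and PHGDH were highest in vehicle recovery tumour 2, at 40.1 and 109.4 CPM, and the PSAT1 log2 fold change was 0.05 without that library. Over the 10 genes, 3 were lower and 1 was higher in every palbociclib recovery tumour, where 5.51% and 6.32% of all genes were.

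Whether the effect of the drug differed between the stages was tested by the difference of the palbociclib effects, recovery minus initial. The edgeR test called 0 of the 10 genes, with 4 at an unadjusted p under 0.05, while 0.22% of all genes passed and 5.22% had an unadjusted p under 0.05. Of the 10 differences 5 were negative, against 48.7% of all genes. DESeq2 called 0 of the 10 and 91 of all human genes, against 41 of all in the main fit. The limma voom fit and edgeR without the low-count filter each called 1 of the 10, PPP1R15A. They called 249 and 320 of all human genes. The difference was 0.88 ± 0.22 on the log2 scale for PPP1R15A (edgeR adjusted p = 0.216) and 0.63 ± 0.19 for VLDLR (edgeR adjusted p = 0.466). Without vehicle initial tumours 2 and 3 these differences were 0.62 and 0.34. It was -1.37 ± 0.50 for CHAC1 and -0.62 ± 0.23 for SESN2 (edgeR adjusted p = 0.742 and 0.767). The effects at both stages are therefore not shown to differ for any of the genes by the main test, and TRIB3, at -0.02 ± 0.43, had effects of nearly the same size at both (0.40 without vehicle recovery tumour 2).

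Within palbociclib tumours, PPP1R15A and VLDLR rose in recovery relative to the end of treatment. This comparison shares its palbociclib initial tumours with the first one. Of the 10 genes, 2 rose, 0 fell and 8 did not pass, whereas 2.82% of all genes tested passed, 2.36% as higher and 0.467% as lower. The log2 fold change was 1.38 ± 0.16 for PPP1R15A (edgeR adjusted p = 0.00023) and 0.76 ± 0.13 for VLDLR (edgeR adjusted p = 0.00629). Both passed in 16 of 16 alternative settings. An unadjusted p under 0.05 was found for 4 of the 10, against 14.4% of all genes, and 3 of the 10 were negative, against 51.5%. In CPM, PPP1R15A averaged 74.8 ± 13.9 in palbociclib recovery tumours and 28.6 ± 2.19 in palbociclib initial tumours, and VLDLR averaged 26.8 ± 2.01 in palbociclib recovery tumours and 15.8 ± 0.703 in palbociclib initial tumours (SD, n = 3 each).

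DDIT3 was also higher in every palbociclib recovery tumour than in every palbociclib initial tumour, averaging 8.39 ± 0.600 CPM in recovery tumours and 4.86 ± 2.10 CPM in initial tumours, and did not pass (log2 fold change 0.78 ± 0.26, edgeR adjusted p = 0.165). It passed without palbociclib initial tumour 3 and in limma voom. CHAC1 had 1.75, 1.30 and 0.846 CPM in palbociclib recovery tumours, all below the initial tumours, with a log2 fold change of -1.06 ± 0.34 (edgeR adjusted p = 0.145). PSAT1 was likewise lower in every recovery tumour, at -0.49 ± 0.24 (edgeR adjusted p = 0.387), and passed in 2 of 16 settings, one of them without vehicle recovery tumour 2. Groups without overlap were found for 3 genes as higher and 2 as lower, where 14.9% and 14.2% of all genes were.

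In vehicle tumours, no gene of the group passed between the stages. The edgeR test called 0 of 10 genes, with 1 at an unadjusted p under 0.05, and 0% of all genes, of which 14.4% had an unadjusted p under 0.05. Of the 10 log2 fold changes 2 were negative, against 50.6% of all genes. DESeq2 and limma voom called 0 of the 10, with 81 and 10 of all human genes. Without the low-count filter edgeR called 1 of the 10, PPP1R15A, and 1124 of all human genes. PPP1R15A averaged 106 ± 11.2 CPM in vehicle recovery tumours and 75.0 ± 12.3 CPM in vehicle initial tumours (SD, n = 3 each), and every recovery tumour was higher (log2 fold change 0.51 ± 0.15, edgeR adjusted p = 0.304). SESN2 was also higher in every vehicle recovery tumour, at 0.31 ± 0.16 (edgeR adjusted p = 0.381). These 2 genes of 10 compare with 6.7% of all genes that were higher without overlap, and 0 of 10 with 8.03% that were lower. The log2 fold changes of the other genes lay between -0.54 for ASNS and 0.45 for TRIB3. Without vehicle recovery tumour 2 the log2 fold changes were -0.20 for ASNS, 0.03 for TRIB3 and 0.20 for SESN2. Those of PHGDH and PSAT1, 0.14 and 0.22 with all libraries, were then negative, at -0.02 and -0.22. Without vehicle initial tumours 2 and 3 the log2 fold change of PPP1R15A was 0.76.

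Across all 12 tumours, the palbociclib initial tumours held the 3 lowest levels of DDIT3, PPP1R15A and VLDLR, where 5.98% of all genes tested had their 3 lowest levels. They held the 3 highest levels of CHAC1, where 3.68% of genes had theirs. The genes of the group did not move as a block, with ATF4 nearly level, one subgroup lowest and CHAC1 highest in the same tumours. The group means of PHGDH lay between 82.6 and 93.0 CPM, while its single tumours ran from 68.7 to 109.4 CPM. Vehicle recovery tumour 2 was the highest of all 12 tumours for TRIB3, PHGDH and PSAT1 and the lowest for ASNS.

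**Figure D3:**
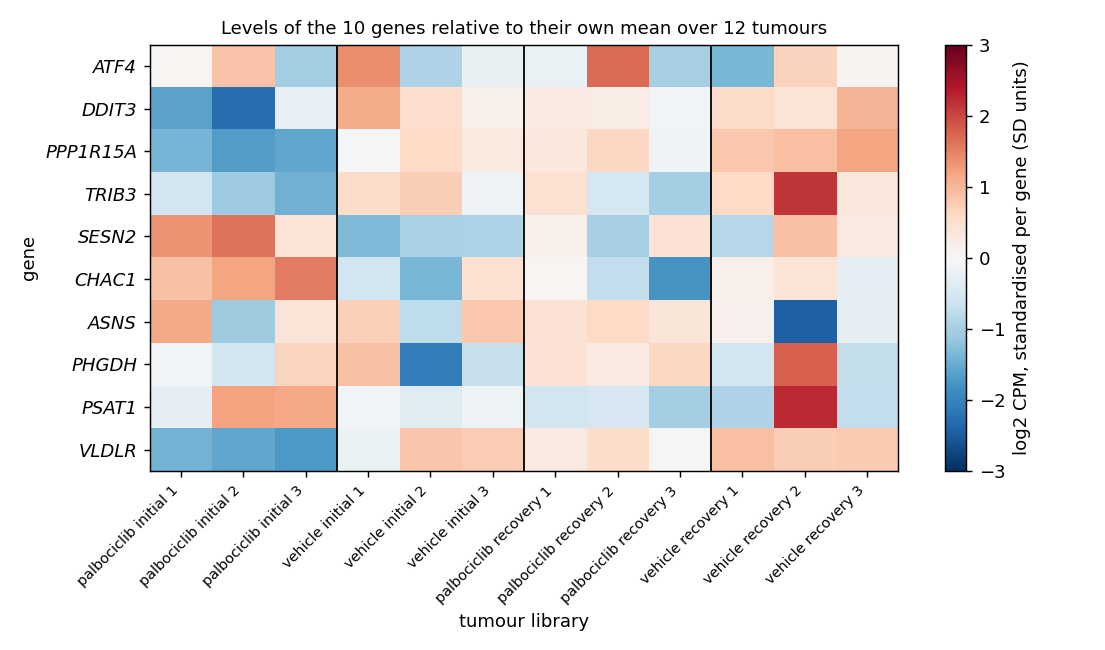
Level of each gene (rows) in each tumour (columns) as log2 CPM standardised per gene, where 0 is the gene's own mean over 12 tumours and 1 unit is 1 SD. PPP1R15A and VLDLR are blue and CHAC1 is red in the palbociclib initial tumours. DDIT3 is blue in palbociclib initial tumours 1 and 2 and near 0, at -0.25, in tumour 3. Vehicle recovery tumour 2 is darkest red for TRIB3, PHGDH and PSAT1.

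The genes around the pathway were described from 11 lists with 138 different genes tested, chosen with earlier results of these data known. Among these, 15 passed edgeR's test at the end of treatment, where 1.84% of all genes tested passed, and 16 in recovery against initial palbociclib tumours, where 2.82% did. None passed between palbociclib and vehicle after recovery, with 22 (15.9%) at an unadjusted p under 0.05, against 8.66% of all genes. None passed in recovery against initial vehicle tumours, with 28 (20.3%) at an unadjusted p under 0.05, against 14.4% of all genes. Since the lists were chosen with results known, nothing is read from these shares. Lists were tested with edgeR only.

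Upstream of ATF4, none of the 16 eIF2alpha kinase, eIF2 and phosphatase genes passed in any comparison, with 0 at an unadjusted p under 0.05 at the end of treatment and 1 in the vehicle stage comparison. The smallest p at the end of treatment was that of EIF2AK2, the kinase PKR, with a log2 fold change of -0.27 ± 0.15 (edgeR adjusted p = 0.626). PPP1CA and PPP1CB, genes of catalytic subunits that the PPP1R15A protein can bind, did not pass, whereas PPP1R15A itself fell.

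Among 12 tested partners of ATF4 with a leucine zipper and their co-regulators, 2 fell at the end of treatment and 10 did not pass. FOS and JUN, subunits of the growth-responsive factor AP-1, fell, with log2 fold changes of -1.18 ± 0.15 and -0.89 ± 0.13 (edgeR adjusted p = 0.000463 and 0.00199). FOS averaged 31.8 ± 0.583 CPM in palbociclib initial tumours and 71.9 ± 13.4 CPM in vehicle initial tumours. In palbociclib tumours both rose in recovery relative to the end of treatment, with log2 fold changes of 1.43 ± 0.15 and 1.00 ± 0.13. Without vehicle initial tumours 2 and 3, FOS fell with a log2 fold change of -1.03 (edgeR adjusted p = 0.0302), while JUN, at -0.75, missed the threshold (edgeR adjusted p = 0.157).

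In the amino acid branch, none of the 10 other serine, glycine and one-carbon enzymes passed at the end of treatment (1 at an unadjusted p under 0.05). Of these 10, 9 were negative, against 49.9% of all genes, with a median of -0.19. MTHFD1L had the smallest p, with a log2 fold change of -0.67 ± 0.21 (edgeR adjusted p = 0.179). None of 10 amino acid transporters and none of 19 cytosolic aminoacyl-tRNA synthetases passed at the end of treatment, with 0 at an unadjusted p under 0.05 in both lists.

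Of 18 other ATF4 and DDIT3 targets and stress outputs, 3 fell at the end of treatment, 15 missed the threshold, and the list's median was -0.13. They were STC2, a secreted glycoprotein, VEGFA, a growth factor for blood vessels, and ERO1A, an oxidase that forms disulfide bonds in the endoplasmic reticulum. Their log2 fold changes were -1.85 ± 0.34, -1.75 ± 0.22 and -1.07 ± 0.20 (edgeR adjusted p = 0.0109, 0.000789 and 0.011). VEGFA and ERO1A are also known to be induced by low oxygen, and VEGFA stands on the low-oxygen list too. The count was 7 without vehicle recovery tumour 2 (3 higher and 4 lower) and 1, VEGFA, without vehicle initial tumours 2 and 3, where the log2 fold changes of STC2 and ERO1A were -1.45 and -0.47 (edgeR adjusted p = 0.387 and 0.837). In recovery relative to initial palbociclib tumours VEGFA, ERO1A and SQSTM1, an autophagy receptor, rose, and the SQSTM1 call (edgeR adjusted p = 0.043) was lost without the same pair of vehicle tumours (edgeR adjusted p = 0.0806).

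The ATF6 and XBP1 arms of the unfolded protein response, which act beside PERK, gave 0 of 18 genes at the end of treatment (2 at an unadjusted p under 0.05). Their differences were small and mostly of one sign, 17 of 18 positive with a median of 0.18, where 49.9% of all genes were negative. Vehicle recovery against vehicle initial tumours also gave 17 of 18 positive, with a median of 0.21, where 50.6% of all genes were negative. In the difference of the palbociclib effects 17 of 18 were negative, with a median of -0.24, against 48.7% of all genes. SYVN1, a ubiquitin ligase of this response, had the smallest p, with a log2 fold change of 0.32 ± 0.13 (edgeR adjusted p = 0.376). Mitochondrial stress proteins gave 0 of 9 (1 at an unadjusted p under 0.05).

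The list that changed most was that of low oxygen, with 10 of 12 genes lower at the end of treatment and a median of -1.67. ADM, a vasodilator peptide, had a log2 fold change of -3.30 ± 0.32, and PFKFB4, a regulator of glycolysis, of -1.89 ± 0.19 (edgeR adjusted p = 0.000213 and 9.13e-05). The count was 6 without vehicle initial tumours 2 and 3. After recovery none of the 12 passed (10 at an unadjusted p under 0.05, against 8.66% of all genes). All 12 were negative, against 50.3% of all genes, with a median of -0.78. These genes were low in the same tumours as PPP1R15A, VLDLR and DDIT3, and their part in those differences was not tested.

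Among 7 tested lipoprotein receptor relatives of VLDLR, none passed at the end of treatment (3 at an unadjusted p under 0.05).

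**Figure D4:**
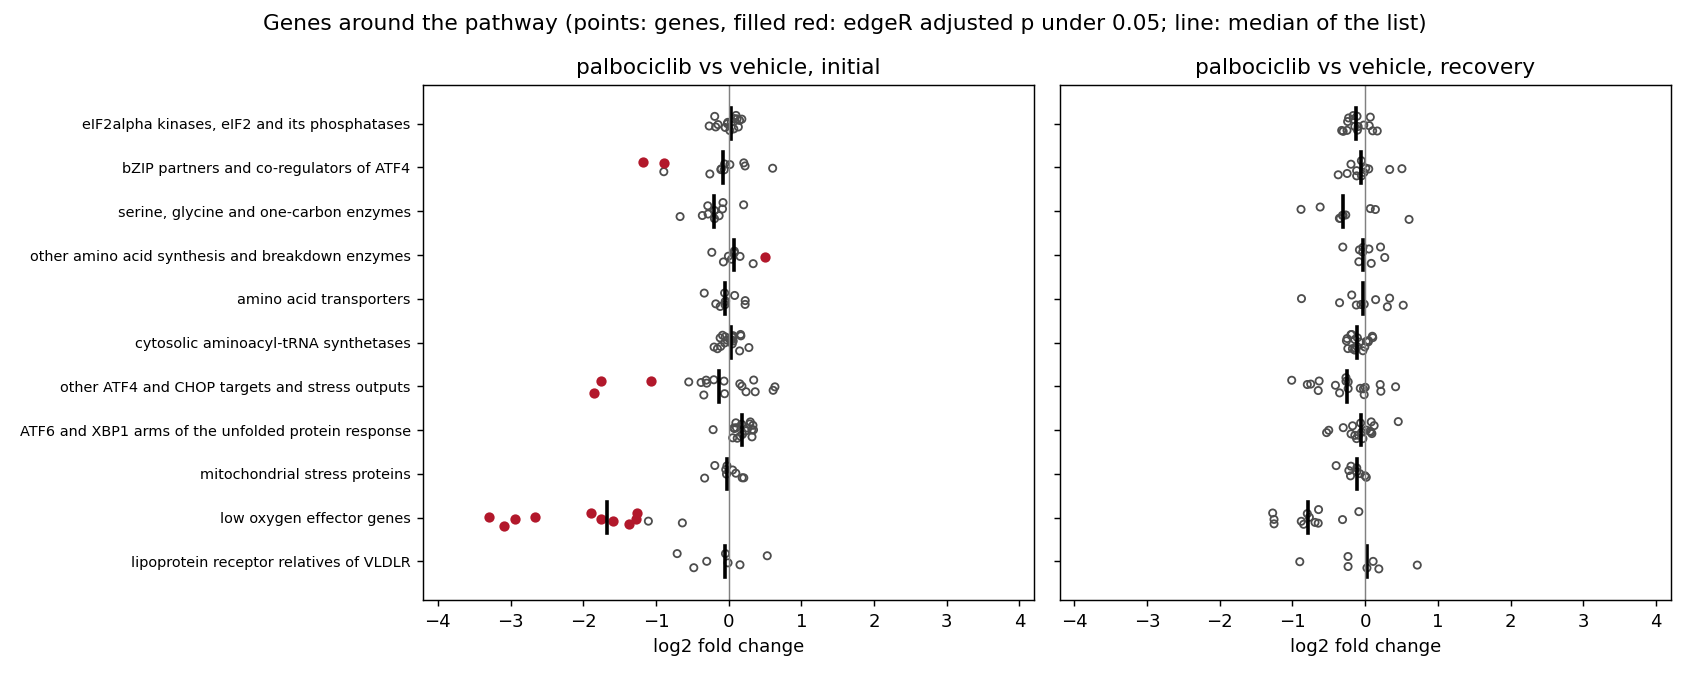
Log2 fold change of palbociclib over vehicle (horizontal axes) for every tested gene of the 11 lists, at the end of treatment on the left and after recovery on the right. Points are genes, filled red where edgeR's test was passed, and lines are list medians. The low-oxygen list stands lowest at both stages, with medians of -1.67 and -0.78, and no gene is filled after recovery.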

How the data were processed

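RNA from 12 tumours was made into TruSeq libraries, per the labels' protocols. The authors deposited raw counts per Ensembl gene, human and mouse genes in 1 file per tumour. Tools and builds named, without roles, in the submitters' processing notes were STAR, edgeR, cutadapt, CASAVA 1.8, GRCh38 and GRCm38. The program that counted reads, its strand setting and its annotation were not given in the sources used here.

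Rows naming no gene held 37.0% to 69.1% of all counts and were left out, as were 713 rows that repeated 484 identifiers. The extremes were 37.0% in vehicle recovery tumour 2 and 61.9% and 69.1% in vehicle initial tumours 2 and 3. Means ± SD were 53.5 ± 0.357% in palbociclib initial and 61.2 ± 8.15% in vehicle initial tumours (exact permutation p = 0.4). For 1 such row alone they were 14.2 ± 1.94% and 28.3 ± 12.0% (exact permutation p = 0.1, the smallest possible). The part of these shares in the results was not tested. Symbols, found for 57980 of 58243 human identifiers, GRCh38 coordinates and exon lengths came from GENCODE 29. Human genes were kept by filterByExpr (minimum count 10, minimum total 15) and fitted in R 4.3.3 with edgeR 4.0.16, TMM scaling and a robust quasi-likelihood model with 4 group means over 12 libraries. Adjusted p-values are Benjamini-Hochberg over all 18628 genes, and a gene passed at an adjusted p under 0.05. A standard error is the absolute log2 fold change divided by the root of its F statistic. The common biological coefficient of variation was 0.18. The steps were tested on simulated data.

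The members and lists were chosen with earlier results of these data known. List genes to name were those of each list that passed, up to 4 by smallest p, or else the 1 with the smallest p. Not every gene that met this rule is named in the text. Results of 2 list genes are not reported here. MARS, PPP1CA and PPP1CB at the end of treatment and the CRE motif were added after values or sequences had been seen. Alternatives were DESeq2 1.42.0, DESeq2 size factors, limma 3.58.1 voom with quality weights, other filters, a mouse-share covariate, no mitochondrial genes, the compared groups alone and libraries left out. Replicate numbers only name tumours.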

Additional observations from a re-analysis of the deposited data

Results flagged for a closer look

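For 2 genes beside the 10, the effect of palbociclib differed between the stages by the main test of the difference itself. The palbociclib effect on FOS, recovery minus initial, was 1.13 ± 0.20 on the log2 scale (edgeR adjusted p = 0.0372), with log2 fold changes of -0.05 in recovery tumours and -1.18 in initial tumours. For ADM the difference was 2.53 ± 0.42 (edgeR adjusted p = 0.0372), with log2 fold changes of -0.77 in recovery tumours and -3.30 in initial tumours. Neither gene had a called effect after recovery (edgeR adjusted p = 0.906 and 0.573). In alternatives run after seeing the data, the FOS difference ranged from 0.96 to 1.27 and passed in 7 of 20 settings, and the ADM difference ranged from 2.01 to 2.88 and passed in 11 of 20. Among the 12 settings that left out 1 tumour, FOS passed in 1, the one without vehicle recovery tumour 2 (edgeR adjusted p = 0.000435), where ADM did not (edgeR adjusted p = 0.119), and ADM passed in 4. Without vehicle initial tumours 2 and 3 neither passed (edgeR adjusted p = 0.39 for FOS and 0.303 for ADM), and 4 human genes passed in this comparison, against 41 with all libraries.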

How the results depend on the processing

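At the end of treatment 2 of the 10 genes passed. The count was 4 without the low-count filter (DDIT3 and TRIB3 added), 4 in voom and 4 without vehicle recovery tumour 2 (DDIT3 and SESN2 added in both), 5 in the fit to the initial libraries alone, and 1 (PPP1R15A) without both vehicle initial libraries of high mitochondrial share. Without 1 replicate it was 2 to 4. Between palbociclib and vehicle after recovery the count of 0 became 1 (TRIB3) without the low-count filter, and 0 to 0 without 1 replicate. For the difference of the palbociclib effects it was 1 (PPP1R15A) without the low-count filter and 1 in voom, and 0 to 0 without 1 replicate. For recovery against initial in palbociclib tumours it was 4 in voom (DDIT3 and CHAC1 added) and 2 to 3 without 1 replicate. In vehicle tumours it was 1 (PPP1R15A) without the low-count filter and 0 to 0 without 1 replicate. The cause of these shifts was not tested. Leaving out libraries leaves fewer samples, yet the counts moved both ways. Without 1 replicate, human genes passed at the end of treatment numbered 160 to 748, against 343 with all libraries. The 748 came without vehicle recovery tumour 2. With all replicates they numbered 753 without the low-count filter, 952 in voom and 689 in the fit to the initial libraries alone. In recovery against initial palbociclib tumours voom called 2353 human genes, against 526 in the main fit. The member counts in these settings thus stand beside higher numbers of calls among all genes.

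Of 820 fold changes of the 10 genes under alternatives, 743 kept their direction and side of the threshold, and 55 changed sign, 0 of them for a gene that had passed, the largest having had a size of 0.39. Of those that changed sign other than by leaving out 1 replicate, ATF4 was at 0.0020 (no filter), 0.010 (voom) and 0.0013 (mouse share) at the end of treatment and at 0.00077 (no filter) and 0.021 (DESeq2) in the vehicle stage comparison. ASNS was at 2.4e-05 (no filter) and 0.067 (voom) at the end of treatment. After recovery PHGDH was at -0.0049 (DESeq2) and -0.063 (mouse share), SESN2 at 0.10 (voom) and 0.017 (mouse share) and PSAT1 at 0.050 (voom). In the difference TRIB3 was at 0.29 (voom), 0.018 (mouse share) and 0.061 (without both high-mitochondrial libraries), and PHGDH at 0.024 (voom) and 0.18 (without both). PSAT1 was at -0.20 (voom) in the vehicle stage comparison, where DDIT3 was at -0.25 and PHGDH at -0.10 without both. PHGDH was at -0.15 at the end of treatment without both. Without 1 replicate, the ranges that crossed 0 at the end of treatment were -0.055 to 0.052 for ATF4, -0.30 to 0.24 for ASNS and -0.019 to 0.25 for PHGDH. After recovery they were -0.039 to 0.082 for ATF4, -0.18 to 0.052 for SESN2, -0.053 to 0.19 for PHGDH and -0.59 to 0.051 for PSAT1. In the difference they were -0.029 to 0.092 for ATF4, -0.31 to 0.40 for TRIB3 and -0.22 to 0.092 for PHGDH. In palbociclib tumours across stages they were -0.050 to 0.071 for ATF4 and -0.17 to 0.37 for ASNS, and in vehicle tumours -0.065 to 0.040 for ATF4, -0.087 to 0.19 for DDIT3, -0.020 to 0.29 for PHGDH and -0.22 to 0.42 for PSAT1.

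Human genes passed numbered 343 at the end of treatment (95 to 952 under alternatives), 1 after recovery (0 to 794), 41 in the difference (4 to 320), 526 in palbociclib tumours across stages (205 to 2353) and 0 in vehicle tumours (0 to 1124). No paired analysis was possible because the labels give the tumours no numbers shared across groups. Depth limits ASNS and CHAC1, with counts as low as 8 per library.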

Other observations

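The tested genes outside the group and with a symbol whose log2 CPM over 12 libraries was most like the mean of the 10 standardised levels were HSF1, TMEM70, RNF216, C7orf26 and AGPAT5, with Pearson's r of 0.95, 0.91, 0.91, 0.90 and 0.89 and Spearman's rho of 0.95, 0.83, 0.87, 0.92 and 0.77. They were picked as the highest of all tested genes and share libraries and depth with the group, so the values are a description. Without vehicle recovery tumour 2, which had the highest mean level of the group, r was 0.90, 0.76, 0.79, 0.88 and 0.71 over 11 libraries. None of the 5 is on a pathway list used here.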
